A study of Mus musculus with 8 samples.

Results

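A set of 10 genes that epithelial cells of the gut use against microbes was examined in intestinal epithelium with and without Rank: the lectin genes Reg1, Reg3a, Reg3b and Reg3g, the IgA transporter gene Pigr, the oxidase gene Duox2 with its partner Duoxa2, and Retnlb, Pglyrp1 and Mbl2. They were chosen by name, and all 10 were found among the 54532 genes of the count table. Of these 10 genes, 8 had enough counts to be tested. Mbl2, Pigr and Reg3a were lower in Rank-knockout epithelium and Pglyrp1 was higher. Of the 8 tested genes Reg3b and Reg3g varied most between animals of 1 genotype, and for these a single Rank-knockout library held the highest values of the study.

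Rank, the product of Tnfrsf11a, is a cell surface receptor that activates NF-κB. The study took intestinal epithelial cells from 4 WT and 4 Rank-knockout mice, all at lactation day 5, and made 1 library of 3′ messenger RNA tags from each sample. Per the study's methods, the Rank-knockout mice were females on a C57BL/6J background that carried loxP-flanked Rank alleles with a Cre gene under the villin promoter, which is active throughout the gut epithelium, and the controls were littermates whose Rank alleles are called wild type without further detail. All were nursing dams that had been mated to wild-type males. Labels gave neither an age nor a segment of the intestine. The comparison asks how the epithelium of a nursing mother differs when it lacks Rank.

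Secreted lectins of the Reg3 family bind sugars of bacterial surfaces and keep bacteria away from the epithelium. Reg3g acts mainly on Gram-positive bacteria, and both Reg3b and Reg3g are known to be induced by the microbiota and by interleukin-22 through STAT3. Pigr carries polymeric IgA from the basal side of the enterocyte into the lumen, Duox2 releases hydrogen peroxide at the apical surface, and Mbl2, Pglyrp1 and Retnlb encode secreted proteins that bind microbial sugars, peptidoglycan or bacterial membranes.

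Of the 4 Reg genes, 3 are shown by their promoters, because Reg3b and Reg3g moved together over the libraries and their neighbour Reg3a did not. The sequences are from RefSeq (GRCm38.p6), run 5′ to 3′ on the strand of the gene and span 250 bases before to 50 bases after the start. Capitals mark runs of at least 10 bases that are also present in the compared promoter, which is Reg3g for the first sequence and Reg3b for the others.
Reg3b, chr6:78370635-78370934, plus strand: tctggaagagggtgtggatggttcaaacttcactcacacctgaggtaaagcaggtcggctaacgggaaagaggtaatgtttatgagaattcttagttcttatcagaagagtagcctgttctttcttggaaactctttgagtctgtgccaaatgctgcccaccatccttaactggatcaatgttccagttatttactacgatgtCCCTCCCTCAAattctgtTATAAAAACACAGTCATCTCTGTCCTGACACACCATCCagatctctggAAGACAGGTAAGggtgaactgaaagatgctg
Reg3g, chr6:78468825-78469124, minus strand: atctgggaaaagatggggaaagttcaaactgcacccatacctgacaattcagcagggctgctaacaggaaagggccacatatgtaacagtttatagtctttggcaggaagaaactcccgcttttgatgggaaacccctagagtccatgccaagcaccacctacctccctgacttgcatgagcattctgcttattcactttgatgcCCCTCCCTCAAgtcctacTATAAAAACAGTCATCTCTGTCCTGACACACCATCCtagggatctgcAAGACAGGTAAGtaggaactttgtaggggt
Reg3a, chr6:78380459-78380758, plus strand: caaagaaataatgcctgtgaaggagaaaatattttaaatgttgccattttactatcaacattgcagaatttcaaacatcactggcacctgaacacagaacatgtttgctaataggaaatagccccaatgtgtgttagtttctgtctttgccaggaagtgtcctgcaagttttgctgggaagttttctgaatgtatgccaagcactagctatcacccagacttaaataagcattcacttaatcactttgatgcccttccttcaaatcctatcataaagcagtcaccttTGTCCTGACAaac
Shared runs took 61 bases of the Reg3b promoter and 59 of the Reg3g promoter, and lay around and after the TATAAA element. In a global alignment these promoters were 69.0% identical over 310 columns, with a longest shared run of 29 bases. The 5 other pairs of Reg promoters were 49.9% to 55.2% identical, with longest runs of 8 to 14 bases. Reg3a shared 10 bases with Reg3b by this measure. That run lay almost at the end of the Reg3a window but further inside the Reg3b window. Bases that follow it in Reg3a fell outside the comparison. Windows set by the annotated start may thus understate the likeness of Reg3a to the others. RefSeq promoters were at hand for 9 of the 10 genes, all but Retnlb. TATAAA on the gene's strand was found in the promoters of Reg1, Reg3b, Reg3g and Duoxa2, where 8.32% of 32817 promoters of this length hold it. TTCNNNGAA, the letters of a STAT site, was searched on both strands and was found in Reg3b and Pigr, against 8.29% of all promoters. The κB consensus, also searched on both strands, was found in Reg3g and Pglyrp1, against 8.46% of all. These matches describe letters in the windows and not binding.

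Library totals ran from 1530781 to 4335653 counts, and 3 of the WT libraries were shallower than every Rank-knockout library. Values are given as CPM, a gene's counts relative to the TMM-scaled library size, and changes as log2 fold changes, Rank-knockout minus WT, with a standard error (SE) and an edgeR p-value adjusted over all 9855 tested genes. Each transcript gives about 1 tag in this assay, so CPM can be compared between genes without regard to length. Of all tested genes 30.4% passed an adjusted p of 0.05, with 15.8% higher and 14.6% lower in Rank-knockout. The targeted gene itself, Tnfrsf11a, was at 77.4, 49.7, 41.7 and 73.9 CPM in WT replicates 1 to 4 and at 27.2, 42.0, 35.5 and 47.2 CPM in the Rank-knockout replicates. The ranges overlapped, it differed by -0.67 on the log2 scale (SE 0.22, adjusted p = 0.032), and the call was lost under 6 of 18 other settings. Tags lie at the 3′ end, which need not be in the deleted part, so this does not check the labels.

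Rank-knockout replicate 1 decided several of the values below. It held the highest Reg3b, Reg3g, Duox2, Duoxa2, Retnlb and Pglyrp1 of all 8 libraries, and the lowest summed level of villus enterocyte, goblet and general epithelial markers. Values without it are therefore given for these genes, and since it was singled out by their levels, they are a description. Over all tested genes it stood apart about as often as some other libraries, as the highest of its genotype in 1.09%, beside 1.23% for Rank-knockout replicate 4 and 1.04% for WT replicate 2. Epithelial markers were strong in every library, with 8923 to 12538 CPM summed over 8 genes, led by Cdh1, Epcam and Cldn7. T cell markers summed to 117 to 264 CPM, most of it Gzma, and stromal and muscle markers to 5.85 to 18.8 CPM. Of the 10 neutrophil and monocyte markers 6 were at 0 in all libraries, including S100a9, Camp, Mpo, Elane and Ly6g, and the rest, mostly Lyz2 and Ltf, summed to at most 8.70 CPM.

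Of the 8 tested genes 1 was higher and 3 were lower, a total of 4, against the 30.4% of all tested genes named above. In 4 of the 8 all Rank-knockout libraries lay to the same side of all WT libraries, which was so for 28.8% of all tested genes. Levels in WT ran from Pigr, at a mean of 4042 CPM, through Reg3b, Reg3g, Reg1, Mbl2, Reg3a, Duox2 and Pglyrp1 to Duoxa2 and Retnlb. Pigr was above Reg3b in 3 of the 4 WT libraries. The WT ranges of neighbours in this order overlapped from Pigr to Reg3a and for Duox2 with Pglyrp1, but Reg3a was above Duox2, and Pglyrp1 above Duoxa2, in every WT library.

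**Figure D1:**
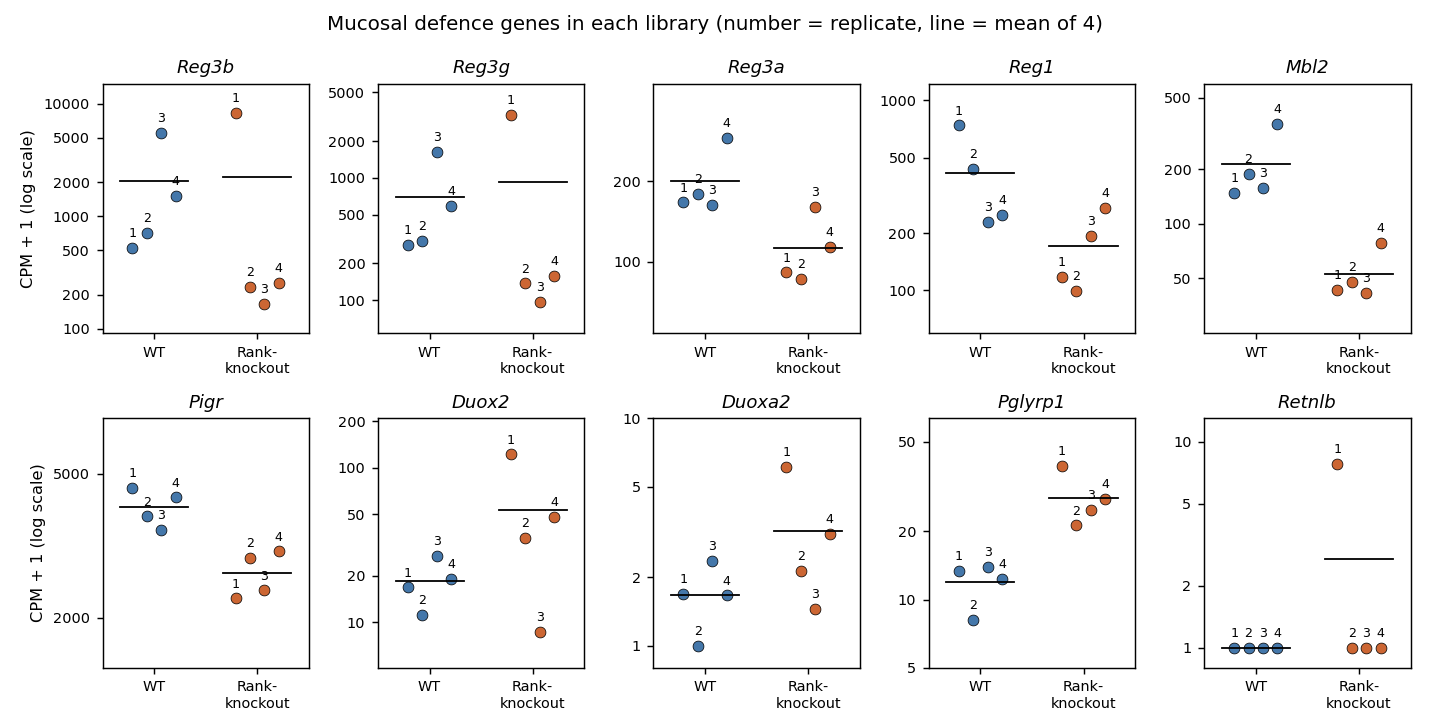
Level of the 10 genes in each library. The vertical axis is CPM + 1 on a log scale, dots are single libraries with their replicate number, and the line is the mean of 4 libraries. Mbl2, Pigr and Reg3a sit lower and Pglyrp1 higher in Rank-knockout with no overlap, and Rank-knockout replicate 1 is far above the other 3 for Reg3b, Reg3g and Retnlb.

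The Reg genes lie together. Reg3b, Reg3d, Reg3a, Reg2, Reg1 and Reg3g fill 98.2 kb of chromosome 6 (GRCm38 chr6:78370657-78468872), and all 6 are protein-coding. Reg2 and Reg3d had 0 counts in all 8 libraries. No 50-base window at the 3′ end of Reg1, Reg3a, Reg3b or Reg3g was shared exactly with another gene, and windows of the 4 genes differed from every other Reg gene of the cluster by at least 3 bases.

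Reg3a (ENSMUSG00000079516, chr6:78380709-78383827, plus strand), a secreted C-type lectin, was at 165.8, 178.4, 162.5 and 289.6 CPM in WT replicates 1 to 4 and at 90.4, 85.6, 159.6 and 112.8 CPM in Rank-knockout replicates 1 to 4. Every Rank-knockout library was below every WT library, although Rank-knockout replicate 3 came close to WT replicate 3. Reg3a fell from 199 ± 60.7 to 112 ± 33.8 CPM (mean ± SD, n = 4 per genotype), which is -0.83 on the log2 scale (SE 0.22, adjusted p = 0.012 by edgeR).

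Reg1 (ENSMUSG00000059654, chr6:78422711-78428667, plus strand) encodes a related lectin that is best known from the pancreas and from regenerating mucosa. It was at 737.8, 435.6, 228.8 and 247.0 CPM in WT animals and at 116.7, 97.6, 192.0 and 271.3 CPM in Rank-knockout. Rank-knockout replicate 4 overlapped with WT replicates 3 and 4, and the other Rank-knockout libraries were below all WT libraries. The means were 412 ± 236 and 169 ± 79.2 CPM (SD, n = 4), and the log2 fold change of -1.28 (SE 0.48) did not pass the test (adjusted p = 0.084 by edgeR). It passed without WT replicate 3 (-1.49, adjusted p = 0.048) or Rank-knockout replicate 4 (-1.61, adjusted p = 0.0497), in DESeq2 (-1.29, adjusted p = 0.047) and in limma-voom (-1.23, adjusted p = 0.021), and over all 18 alternatives its adjusted p ran from 0.021 to 0.28. The 7 pancreatic acinar markers summed to 36.2 to 62.1 CPM in WT and to 30.1 to 50.3 CPM in Rank-knockout. Nearly all of this was Cela1, at 48.0 and 40.8 CPM on average, while Cpa1, Cela2a and Amy2a5 were at 0 in all libraries and Pnlip, Prss2 and Ctrb1 had 2, 1 and 4 counts, all in Rank-knockout.

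Reg3b (ENSMUSG00000071356, chr6:78370657-78373466, plus strand) had 763, 2793, 8021 and 2285 counts in WT and 38952, 628, 370 and 972 counts in Rank-knockout. As CPM these were 522.7, 707.7, 5478 and 1521 in WT and 8268, 235.7, 166.4 and 256.2 in Rank-knockout. Of the Rank-knockout libraries 3 were below every WT library, and the other was above every WT library. The means, 2057 ± 2321 and 2232 ± 4025 CPM (SD, n = 4), differed by far less than the spread between libraries, with a difference of 0.12 on the log2 scale (SE 1.57, adjusted p = 0.97 by edgeR). Without Rank-knockout replicate 1 the Rank-knockout mean was 219 ± 47.1 CPM (SD, n = 3) and the log2 fold change -3.22 (SE 1.03), which also missed the threshold (adjusted p = 0.086). The adjusted p ran from 0.086 to 0.99 over the alternatives that gave one.

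Reg3g (ENSMUSG00000030017, chr6:78466269-78468872, minus strand) followed the same order at lower levels. It had 413, 1207, 2389 and 881 counts in WT and 15503, 362, 212 and 590 counts in Rank-knockout, which were 282.9, 305.9, 1632 and 586.4 CPM and 3291, 135.8, 95.3 and 155.5 CPM. Again, Rank-knockout replicates 2 to 4 were below all WT libraries and replicate 1 above them. With all libraries the difference was 0.40 on the log2 scale (SE 1.38, adjusted p = 0.86 by edgeR), and it was -2.43 (SE 0.78, adjusted p = 0.084) without Rank-knockout replicate 1, where the Rank-knockout mean fell from 919 ± 1581 (SD, n = 4) to 129 ± 30.7 CPM (SD, n = 3). Its adjusted p ran from 0.084 to 0.97 over the alternatives, and DESeq2 gave none for Reg3b or Reg3g.

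**Figure D2:**
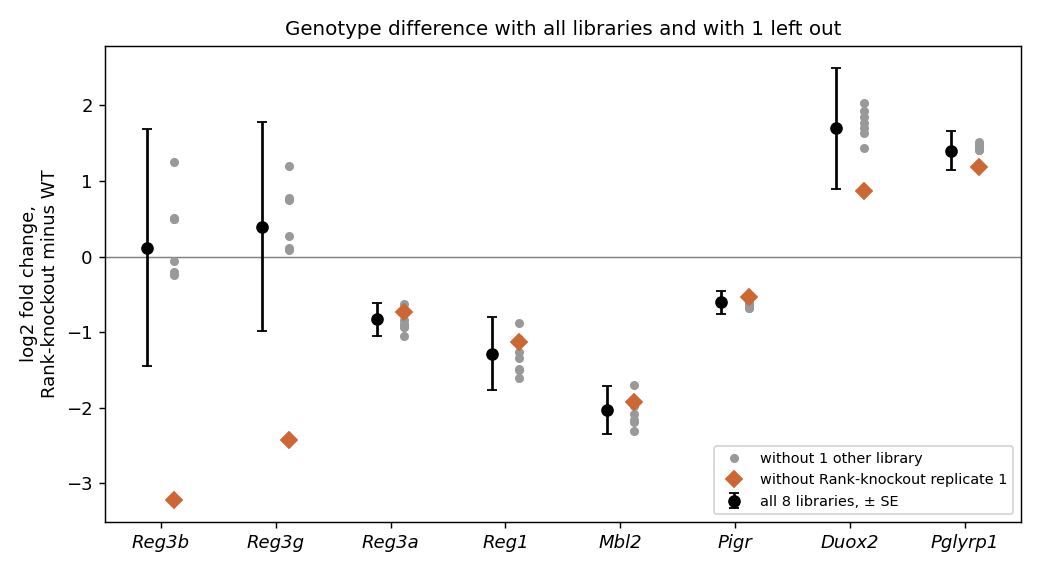
Log2 fold change, Rank-knockout minus WT, of the 8 tested genes. Black dots with bars are the value ± SE over all 8 libraries, grey dots leave out 1 library each, and the diamond leaves out Rank-knockout replicate 1. For Reg3b and Reg3g the diamond lies at -3.22 and -2.43, far from the values near 0 with all libraries, while Reg3a, Mbl2, Pigr and Pglyrp1 keep their sign throughout.

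Within a library Reg3b and Reg3g kept a narrow ratio. Reg3b made up 64.9%, 69.8%, 77.1% and 72.2% of the counts of the pair in WT and 71.5%, 63.4%, 63.6% and 62.2% in Rank-knockout. The share thus stayed between 62.2% and 77.1% while the level of Reg3b ran from 166.4 to 8268 CPM. In both genotypes the library with the highest Reg3b also had the highest share of it. The log2 ratio of Reg3g to Reg3b was -1.30 ± 0.36 in WT libraries and -0.91 ± 0.28 in Rank-knockout libraries (SD, n = 4), and was not tested. Against Pigr, another enterocyte gene, the linear ratio of Reg3b was 0.114, 0.186, 1.57 and 0.354 in WT and 3.66, 0.0806, 0.0699 and 0.0841 in Rank-knockout.

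Over the 8 libraries the gene nearest to Reg3b among 9854 others was Reg3g, and the gene nearest to Reg3g was Reg3b, with a root mean square difference of 0.34 between their log2 levels after each gene was centred on its own mean. Next in both cases were Alpk1, which encodes a kinase, with 1.24 from Reg3b and 0.92 from Reg3g, and Tifa, which encodes a signalling adaptor, with 1.47 and 1.17. These points share libraries and depth, and the likeness is a description. Alpk1 was at 6.2, 4.1, 15.0 and 9.3 CPM in WT animals and at 31.2, 6.0, 4.5 and 5.0 CPM in Rank-knockout. Tifa was at 13.7, 23.3, 28.7 and 46.6 CPM in WT animals and at 90.6, 15.4, 21.6 and 25.3 CPM in Rank-knockout. Neither differed between genotypes past the threshold (adjusted p = 0.58 and 0.60 by edgeR), and for both Rank-knockout replicate 1 was the highest library. Reg1, from the same cluster, ranked 9418 of 9854 in likeness to Reg3b and Reg3a ranked 5053.

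**Figure D3:**
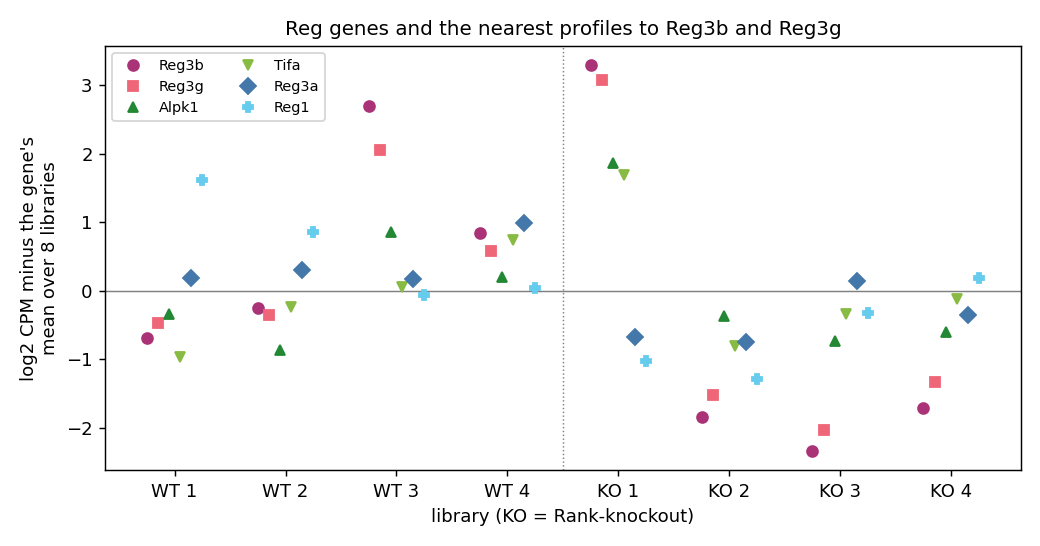
Log2 CPM of 6 genes minus each gene's mean, for each of the 8 libraries (KO is Rank-knockout). Reg3b and Reg3g lie close together in every library and peak in WT replicate 3 and Rank-knockout replicate 1, and Alpk1 is high in the same libraries, while Reg3a and Reg1 are below their means in Rank-knockout replicate 1.

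Pigr (ENSMUSG00000026417, chr1:130826684-130852249, plus strand), the polymeric immunoglobulin receptor, was the most abundant of the 10 genes on average. Of its 886 windows of 50 bases at the 3′ end 18 were shared exactly with another gene. It was at 4567, 3807, 3499 and 4296 CPM in WT animals and at 2262, 2925, 2380 and 3047 CPM in Rank-knockout. The highest Rank-knockout library was below the lowest WT library. Pigr fell from 4042 ± 480 to 2653 ± 390 CPM (SD, n = 4), which is -0.61 on the log2 scale (SE 0.16, adjusted p = 0.0085 by edgeR). The genes with the nearest profiles were Herc2, Frk and Magi3, at root mean square differences of 0.071, 0.091 and 0.092.

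Summed villus enterocyte markers moved with Pigr, Mbl2 and Reg3a. Their sum, led by Apoa4, Slc5a1 and Apoa1, was 26833 to 37511 CPM in WT and 13117 to 18342 CPM in Rank-knockout, and 11 of 12 were lower. General epithelial markers summed to 11437 to 12538 CPM in WT and 8923 to 11262 CPM in Rank-knockout, with 2 of 8 higher and 3 lower. Summed segment markers were lower for 2 of 3 segments. Those of the proximal small intestine, led by Lct, Onecut2 and Adh6a, summed to 2785 to 3977 CPM in WT and to 1220 to 2040 CPM in Rank-knockout, with 2 of 5 tested markers lower, Lct and Adh6a. Those of the ileum, led by Slc51a, Slc51b and Osr2, summed to 609 to 647 CPM and 271 to 549 CPM, with 1 of 3 tested markers lower, Slc51b. Those of the colon, led by Slc26a3, Car4 and Muc4, overlapped at 277 to 361 CPM and 232 to 485 CPM, with Muc4 higher and none lower of 3 tested. All 3 sums were lowest in Rank-knockout replicate 1. The part of all these markers in the falls was not tested, and in bulk samples fewer cells of a type and less RNA per cell cannot be told apart.

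Other genes of the IgA system had their own values. Of 14 genes besides Pigr 6 were tested, and 1 of them, the immunoglobulin kappa constant gene Igkc, was lower, from 44.5 ± 17.2 to 11.7 ± 7.67 CPM (SD, n = 4; log2 fold change -1.90, adjusted p = 0.0091 by edgeR). Igha, the IgA heavy chain, was at 86.3, 78.3, 24.6 and 49.3 CPM in WT animals and at 17.2, 37.5, 5.85 and 24.5 CPM in Rank-knockout (log2 fold change -1.49, adjusted p = 0.066 by edgeR), and passed under 5 of 18 other settings. Igha and Igkc are transcripts of plasma cells and not of enterocytes, and the 6 plasma cell markers, these 2 included, summed to 54.6 to 153 CPM in WT and to 9.89 to 55.2 CPM in Rank-knockout. Ccl25, a chemokine that draws lymphocytes to the small intestine, was at 1777 ± 120 and 1447 ± 380 CPM (SD, n = 4) and did not pass (adjusted p = 0.22 by edgeR). Fcgrt, an IgG receptor, was at 60.6 ± 7.16 and 44.3 ± 10.4 CPM (SD, n = 4) and did not pass either (adjusted p = 0.077 by edgeR).

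Mbl2 (ENSMUSG00000024863, chr19:30232942-30239687, plus strand), a mannose-binding lectin of the complement system, showed the largest change of the 8 tested genes with all libraries in the fit. It was at 148.0, 188.8, 156.4 and 356.8 CPM in WT animals and at 41.8, 46.5, 40.5 and 77.8 CPM in Rank-knockout. The groups were well apart, with the highest Rank-knockout library below the lowest WT library. Mbl2 fell from 212 ± 97.8 to 51.6 ± 17.6 CPM (SD, n = 4), which is -2.03 on the log2 scale (SE 0.32, adjusted p = 0.0013 by edgeR). It is best known as a liver product, and the 6 liver markers summed to 1.33 to 4.78 CPM in WT and to 3.16 to 7.64 CPM in Rank-knockout. Most of this was Ttr, at 2.61 and 4.81 CPM on average, while Serpina1a and Hpx were at 0 in all libraries and Alb had 2 counts over all of them. Of the other genes for collectins, the lectin pathway and complement, 9 of 18 had 0 counts in all libraries, among them Mbl1, Masp1 and Masp2. Of the 18, 3 were tested, and Cd55, which protects cells from complement, was lower, from 8.42 ± 0.620 to 3.19 ± 0.678 CPM (SD, n = 4; log2 fold change -1.36, adjusted p = 0.0035 by edgeR). Cfb and C2 did not pass (log2 fold change -0.33 and -0.50, adjusted p = 0.48 and 0.24 by edgeR).

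Pglyrp1 (ENSMUSG00000030413, chr7:18871331-18890459, plus strand), a secreted peptidoglycan recognition protein, was the only one of the 8 tested genes that passed as higher. It had 18, 28, 19 and 17 counts in WT and 179, 54, 53 and 102 counts in Rank-knockout, or 12.3, 7.1, 13.0 and 11.3 CPM and 38.0, 20.3, 23.8 and 26.9 CPM. Every Rank-knockout library was above every WT library, with Rank-knockout replicate 1 the highest. Pglyrp1 rose from 10.9 ± 2.65 to 27.2 ± 7.66 CPM (SD, n = 4), which is 1.40 on the log2 scale (SE 0.26, adjusted p = 0.0013 by edgeR), and was 1.19 higher on that scale without Rank-knockout replicate 1. Neutrophils store this protein, and the 10 neutrophil and monocyte markers, of which 6 were at 0, summed to 2.05 to 6.17 CPM in WT and to 3.95 to 8.70 CPM in Rank-knockout, highest in Rank-knockout replicate 1. Paneth cell markers, led by Lyz1, Defa24 and Defa30, summed to 1538 to 3737 CPM in WT and to 2382 to 7583 CPM in Rank-knockout, with 4 of 9 tested markers higher and none lower. M cell markers summed to 15.7 to 35.6 CPM in WT and to 27.7 to 48.4 CPM in Rank-knockout, with Gp2 and Sox8 at 0 in all libraries. Of the 2 tested M cell markers Ccl9 was higher (log2 fold change 1.52, adjusted p = 0.0048 by edgeR) and Spib did not pass (0.71, adjusted p = 0.11). The study reported that M cells of Peyer's patches were absent in its Rank-knockout females, so these markers need not stand for M cells here. The part of these cell types in the rise was not tested.

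Of 24 genes that sense microbes, Pglyrp1 aside, 14 were tested, of which 1 was higher, 2 were lower and 11 did not pass. Of all tested genes 15.8% were higher and 14.6% lower. Pycard, the adaptor of inflammasomes, rose from 223 ± 41.7 to 448 ± 15.3 CPM (SD, n = 4; 2.01 times the WT mean, adjusted p = 0.00036 by edgeR), and no library overlapped. Naip6 and Naip2, which belong to a family of cytosolic receptors for bacterial proteins, fell by 0.79 and 0.48 on the log2 scale (adjusted p = 0.0065 and 0.045 by edgeR), with some overlap of libraries, and the call of Naip2 was lost under 12 of 18 other settings. Naip5, of the same family, missed the threshold (log2 fold change -0.72, adjusted p = 0.052 by edgeR) and passed under 6 of the 18. Over these settings 1 to 4 of the list were lower. The number was 1 without Rank-knockout replicate 1, where 11.2% of all tested genes were lower. It was 4 without WT replicate 2, where 1564 of 9883 were lower. Naip genes are close paralogs that may share reads, so their values are uncertain. Nlrp6 averaged 265 ± 15.8 CPM in WT libraries and 254 ± 43.5 CPM in Rank-knockout ones (SD, n = 4; adjusted p = 0.78 by edgeR). Ticam1, an adaptor of Toll-like receptors, was at 103 ± 9.45 and 82.1 ± 13.3 CPM (SD, n = 4; adjusted p = 0.10 by edgeR). Pglyrp2, Pglyrp3 and Pglyrp4 had 0 counts in all libraries.

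Duox2 (ENSMUSG00000068452, chr2:122279247-122298449, minus strand) and Duoxa2 (ENSMUSG00000027225, chr2:122298900-122302885, plus strand) are neighbours that start 451 bp apart and point away from each other. Duox2 had 23, 40, 38 and 27 counts in WT and 571, 91, 17 and 179 counts in Rank-knockout, which were 15.8, 10.1, 26.0 and 18.0 CPM and 121, 34.1, 7.6 and 47.2 CPM. Rank-knockout replicates 1, 2 and 4 were above every WT library, and replicate 3 was below every one. The log2 fold change of 1.70 (SE 0.80) missed the threshold (adjusted p = 0.16 by edgeR). Without Rank-knockout replicate 3 it was 2.03 and passed (adjusted p = 0.020), and without Rank-knockout replicate 1 it was 0.87 (adjusted p = 0.30), and over the alternatives its adjusted p ran from 0.020 to 0.35.

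Duoxa2, the maturation factor that Duox2 needs to reach the cell surface, was too low to test. It had 1, 0, 2 and 1 counts in WT and 24, 3, 1 and 8 counts in Rank-knockout, so that both genes had the same order of libraries within Rank-knockout. With no filter on low counts its log2 fold change was 2.20 (SE 0.77, adjusted p = 0.032 by edgeR), while DESeq2 gave 1.97 with no adjusted p. Without Rank-knockout replicate 1 the unfiltered value was 1.30 and did not pass (adjusted p = 0.47 by edgeR), and the mean of the other 3 Rank-knockout libraries was 1.23 CPM in place of 2.19 CPM. The unfiltered call was also lost without WT replicate 1, 2 or 4 (adjusted p = 0.057, 0.26 and 0.065 by edgeR), and these fits were added after the data were seen. Duox2 took 94.4% to 96.8% of the counts of the pair in the Rank-knockout libraries. The other pair of this family was nearly silent, with 0 counts of Duoxa1 and 3 counts of Duox1 over all libraries.

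Of 14 other genes for NADPH oxidases 4 were tested. Noxa1 and Noxo1, the activator and organizer of an epithelial oxidase, were higher, from 8.64 ± 1.16 to 19.2 ± 11.8 CPM (log2 fold change 1.16, adjusted p = 0.028 by edgeR) and from 46.0 ± 6.68 to 63.4 ± 5.20 CPM (0.45, adjusted p = 0.039 by edgeR; SD, n = 4). Both calls were lost without Rank-knockout replicate 1 (log2 fold change 0.60 and 0.41, adjusted p = 0.12 and 0.10), and under 5 and 8 of 18 settings in all. Rac1, a GTPase that also serves these oxidases, was lower (log2 fold change -0.38, adjusted p = 0.040 by edgeR) with the call lost under 9 of 18 settings, and Cyba, their membrane subunit, was at 76.6 ± 11.6 and 83.5 ± 5.26 CPM (SD, n = 4; adjusted p = 0.56 by edgeR).

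Retnlb (ENSMUSG00000022650, chr16:48816856-48818892, plus strand), a goblet cell resistin-like protein that damages bacterial membranes, had 32 counts in Rank-knockout replicate 1 and 0 counts in each of the other 7 libraries. This was 6.79 CPM in that library, and in the 7 libraries at 0 the limit that a count of 0 allows, 3 counts in a library, was 0.76 to 2.06 CPM. Counting error alone is covered by this limit. Goblet cell markers summed to less in Rank-knockout replicate 1, at 7379 CPM, than in any other library, where they were at 9136 to 17423 CPM. Saa1 and Lcn2, a serum amyloid and an iron-chelating protein of inflamed mucosa, had 20 and 17 counts in the same library, while the highest count elsewhere was 1 for Saa1 and 6 for Lcn2. These were picked after their values were seen. Of other genes of their list, Saa3 had 5 counts in this library, but Saa2, S100a8 and S100a9 had 0. Nos2 had 2, its lowest level relative to library size. Retn and Retnla had 0 counts in all libraries, and Retnlg had 2 in all.

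The remaining lists cover signals known to act on such genes and further secreted defences. Over 8 lists, 120 genes other than the 10 were looked up and 47 were tested, of which 6 were higher and 13 lower, beside 15.8% and 14.6% of all genes. In the interleukin-22, interleukin-17 and STAT3 list 6 of 11 tested genes were lower and none higher, and the median log2 fold change was -0.44 against 0.024 over all genes. The number lower was 2 to 6 over the 18 other settings and none was higher in any. Under library totals 2 were lower and the median was -0.24, against 0.22 over all genes in that setting. Villus enterocyte markers fell in the same libraries, as given above, and their part in this list was not tested. Il33, an alarmin, fell from 31.6 ± 6.53 to 15.6 ± 2.93 CPM, Il18, a cytokine made by enterocytes, from 577 ± 144 to 349 ± 43.4 CPM, and Stat3 from 251 ± 24.7 to 161 ± 37.6 CPM (SD, n = 4; log2 fold change -1.04, -0.73 and -0.64, adjusted p = 0.0021, 0.0049 and 0.0095 by edgeR). Nfkbiz, Il10rb and Il17ra were lower by less, with log2 fold changes of -0.58, -0.58 and -0.44 (adjusted p = 0.022, 0.033 and 0.049 by edgeR), and their calls were lost under 7, 10 and 13 of 18 other settings. Jak1 and Il17rc did not pass (adjusted p = 0.075 and 0.27 by edgeR). Stat3 was at 185, 157, 110 and 193 CPM in Rank-knockout replicates 1 to 4. The call of Stat3 was lost with library totals (-0.44, adjusted p = 0.054). Il33 and Il18, the 2 lower genes left in that setting, encode other interleukins than those that name the list. Several listed genes were too low to test. Among these, Il22ra1 totalled 26 (WT) and 23 (Rank-knockout) counts, and Socs3 totalled 43 and 49. Fut2 totalled 11 and 27, and Il22ra2 totalled 6 and 3. The list result thus describes its tested genes and not these signals as a whole.

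Among other secreted or surface defence genes, 8 of 28 were tested, with 3 higher and 2 lower, beside 15.8% and 14.6% of all tested genes. Zg16, a goblet cell lectin that binds Gram-positive bacteria, fell from 10026 ± 1618 to 5348 ± 845 CPM, and Muc13, a membrane mucin, from 3111 ± 186 to 1918 ± 330 CPM (SD, n = 4; log2 fold change -0.91 and -0.70, adjusted p = 0.0012 and 0.0035 by edgeR). The 7 goblet cell markers other than Zg16 summed to 4267 to 5067 CPM in WT and to 3126 to 3939 CPM in Rank-knockout. Of these 7, Muc2, Clca1 and Fcgbp were lower, Agr2 and Spink4 were higher (log2 fold change 0.85 and 1.03, adjusted p = 0.00062 and 0.0013 by edgeR), and their part in the fall of Zg16 was not tested. Dmbt1, a scavenger receptor that agglutinates bacteria, rose from 796 ± 241 to 1787 ± 908 CPM (SD, n = 4; log2 fold change 1.17, adjusted p = 0.032 by edgeR), and by 0.76 without Rank-knockout replicate 1 (adjusted p = 0.034), but its call was lost without WT replicate 2 (1.18, adjusted p = 0.094) and with no filter on low counts (1.21, adjusted p = 0.052). Gsdmc4, a gasdermin, rose from 6.14 ± 1.74 to 20.2 ± 13.2 CPM (SD, n = 4; log2 fold change 1.84, adjusted p = 0.013 by edgeR), although it has close paralogs that may share reads and its call was lost without WT replicate 2 (1.54, adjusted p = 0.066). Itln1, a lectin for microbial sugars made by goblet and Paneth cells, was higher by 0.99 (adjusted p = 0.038 by edgeR) with overlapping libraries, and the call was lost when any of 5 libraries was left out, WT replicates 1, 3 and 4 and Rank-knockout replicates 1 and 3 (log2 fold change down to 0.76, adjusted p = 0.064 to 0.13). Lypd8, which keeps flagellated bacteria off the mucosa, was at 433 ± 118 and 608 ± 103 CPM (SD, n = 4; adjusted p = 0.057 by edgeR), and passed as higher under 5 of 18 other settings. Reg4, the Reg gene outside the cluster, on chromosome 3, was at 1029 ± 411 and 1122 ± 630 CPM (SD, n = 4; adjusted p = 0.86 by edgeR).

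**Figure D4:**
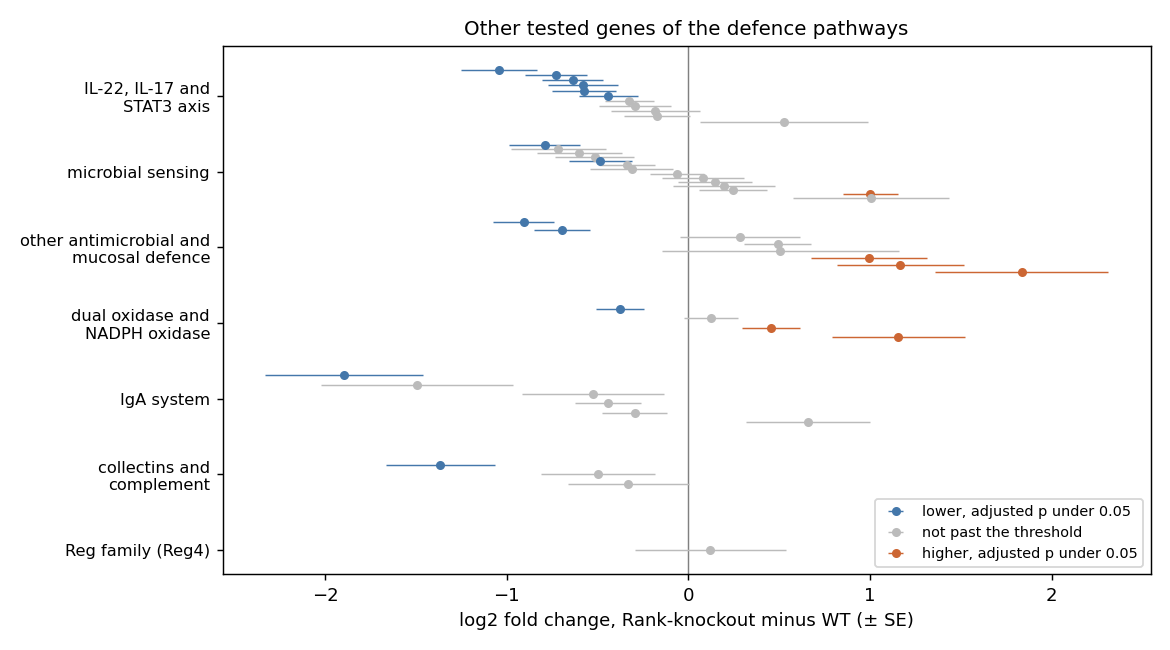
Log2 fold change ± SE, Rank-knockout minus WT, of the 47 other tested genes of the defence lists, 1 dot per gene, grouped by list (the resistin-like list had no tested gene). Blue dots are the 13 lower genes, orange the 6 higher and grey the 28 that did not pass, and no gene of the interleukin list is orange.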

How the data were processed

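Epithelial cells of 4 WT and 4 Rank-knockout mice gave 1 library of 3′ tags each. By the methods of the study, the authors cleaned reads with BBDuk, removed ribosomal, mitochondrial, phiX and adapter reads with bowtie2, aligned the rest to GRCm38 (mm10) with STAR and Ensembl genes, and counted them with featureCounts by strand. The deposited file holds these counts as they are, without normalization, and the authors' own test was DESeq2. No source names molecular identifiers, so copies made by PCR may be included. Symbols and positions are from GENCODE M21 on the same build, which named 54409 of 54532 identifiers, and 1 list gene was not matched.

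Counts were filtered with filterByExpr, scaled by TMM and tested with the robust quasi-likelihood F-test of edgeR 4.0.16 (R 4.3.3), with genotype as the only term and Benjamini-Hochberg adjustment over all tested genes at 0.05. CPM uses TMM-scaled library sizes, and profiles use log2 CPM with a prior count of 2. P-values measure the spread between these animals only.

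The genes and lists were chosen with earlier results of these data known, so that no list supports itself. Named are all 10 genes, Tnfrsf11a, of each list up to 4 called genes with the smallest p and 2 uncalled ones with the highest CPM, the 3 most abundant markers of a marker list, and the 3 nearest profiles of the 3 most abundant tested genes. Il10rb, Il17ra, Itln1, Igha, Agr2, Spink4, Muc2, Fcgbp, Saa1, Lcn2, Naip5 and other genes given only by counts, or as markers at 0, were named outside this rule after their values were seen. Other settings were scaling by RLE, by library totals, by totals that omit the 50 most abundant genes and by TMM that omits the 10 genes, dropping the filter or asking for a mean of 5 CPM, limma-voom (limma 3.58.1), DESeq2 1.42.0, every library thinned to 1530781 counts, a block for the replicate number, and leaving out libraries in turn, for Duoxa2 also without the filter, which was added after the data were seen.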

Additional observations from a re-analysis of the deposited data

Results flagged for a closer look

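In 14 of 82 sets of 4 libraries, each a gene or ratio in 1 genotype, 1 library lay far from the other 3 by Dixon's test. For unselected and independent sets chance would give about 1 in 20, or 4.1 of 82. These sets share libraries, the ratios reuse the same genes, and the genes were chosen with earlier results known. The 14 can therefore not be judged against 4.1. Rank-knockout replicate 1 was the one for Reg3b at 8268 CPM (the others at 166 to 256), Reg3g at 3291 CPM (95.3 to 156), Retnlb at 6.79 CPM (all others at 0), Tifa at 90.6 CPM (15.4 to 25.3) and, as a low value, Nlrp6 at 190.0 CPM (271 to 286). It also stood apart in the log2 ratio of Reg3b to Pigr at 1.87 (-3.84 to -3.57) and of Reg3g to Reg3b at -1.33 (-0.80 to -0.72). Over all tested genes this library stood apart as the highest of its genotype in 1.09% and as the lowest in 0.893%, beside 1.23% and 0.802% for Rank-knockout replicate 4.

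Rank-knockout replicate 4 stood apart for Mbl2 at 77.8 CPM (40.5 to 46.5) and Naip6 at 63.3 CPM (43.9 to 45.4). WT replicate 4 did so for Reg3a at 289.6 CPM (162.5 to 178.4). WT replicate 2 did so for Gsdmc4 at 3.55 CPM (6.83 to 7.32), Naip2 at 37.5 CPM (55.5 to 56.0), Il18 at 791 CPM (484 to 536) and the log2 ratio of Duoxa2 to Duox2 at -6.34 (-4.20 to -3.94), where 0.5 was added to each count and Duoxa2 had 0 counts. The falls of Mbl2 and Reg3a kept their direction without the library that stood apart.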

How the results depend on the processing

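Mbl2, Pigr, Reg3a and Pglyrp1 stayed past the threshold in the same direction under all 18 alternatives, with log2 fold changes of -2.30 to -1.70, -0.68 to -0.41, -1.04 to -0.63 and 1.17 to 1.60. For Reg3a the highest adjusted p was 0.0486, without Rank-knockout replicate 1. Reg3b turned to -1.31 in limma-voom, -1.82 with the replicate block, -0.25, -0.20 and -0.05 without WT replicates 1, 2 and 4, and -3.22 without Rank-knockout replicate 1, and Reg3g to -0.91, -1.25 and -2.43 in limma-voom, with the block and without Rank-knockout replicate 1, none past the threshold. Leaving out 1 library gave Reg3b from -3.22 to 1.25 and Reg3g from -2.43 to 1.20. Tnfrsf11a was -0.48 with library totals (adjusted p = 0.11) and -0.54 without the 50 most abundant genes (0.076), and -0.81 to -0.52 with 1 library left out, with the call lost in 4 of these 8. The number of the 10 genes called higher was 2 with no filter, which added Duoxa2 (1.30 to 2.84 on the log2 scale with 1 library left out, the call lost in 4 of these 8), and 1 to 2 with 1 library left out. List genes called lower were 7 with library totals and 8 without the 50 most abundant genes, which moved the median of all genes from 0.024 to 0.22 and 0.15, and 9 to 14 with 1 library left out. List genes called higher were 6, and were 9 with no filter, 8 with library totals and 3 to 6 with 1 library left out, 3 without WT replicate 4 or Rank-knockout replicate 1. The difference in the log2 ratio of Duoxa2 to Duox2 was -0.26 to 0.54 with 1 library left out, turning without WT replicate 2, and that of Reg3b to Pigr -2.08 to 0.057, turning without WT replicate 3. Libraries with the same replicate number correlated at 0.05, 0.15, -0.14 and 0.32 in their deviations from the group means. Those with different numbers correlated at -0.35 to 0.25. With so few libraries this does not settle whether the numbers pair the samples. The replicate block gave 1708 higher and 1602 lower genes in place of 1555 and 1438. The cause of these changes was not tested. Duoxa2 and Retnlb had too few counts for the main test.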
